A study of Mus musculus with 8 samples.

Results

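Genes for 10 adipose tissue hormones and other secreted products were followed in epididymal white adipose tissue (eWAT), the visceral fat pad on the epididymis, of Abhd15 KO and WT mice. The 10 were Adipoq, Lep, Retn, Cfd, Rbp4, Nampt, Rarres2, Apln, Agt and Itln1, a set named by function, and each was read at the brightest probe set that is annotated to that gene alone. By this rule 8 of the 10 were measured, each by 1 probe set, among 22180 genes on the array. No probe set is listed for Cfd in the annotation used here, and the one listed for Rarres2 (chemerin) is shared with Lrrc61, so neither gene has a value of its own. The KO group was 5 male Abhd15 knockout mice and the WT group 3 male wild-type mice, all on C57BL/6J and fed normal chow. The mice were 14 weeks old and were refed for 1 h after an overnight fast before the fat was frozen, and each array held the total RNA of 1 mouse. The sources used here do not give how the Abhd15 allele was made, whether mice were littermates or whether arrays were run together. The limma p-values set the difference between the groups against the spread within them, for these 8 arrays only. The comparison addresses how the absence of ABHD15, a protein with an alpha/beta-hydrolase fold found in adipocytes, alters gene expression in fat in the early refed state.

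White adipocytes secrete hormones that report on fat stores and feeding to other organs. Leptin (Lep) acts on the brain to limit food intake and follows fat mass, whereas adiponectin (Adipoq) acts on liver, muscle and vessels through the receptors AdipoR1 and AdipoR2 and through T-cadherin. Other products act locally as well as at a distance: apelin on vessels, angiotensinogen as the precursor of angiotensin II, and chemerin on leukocytes and adipocytes.

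Values are log2 after RMA, so a difference of 1 is a 2-fold signal, and values of different probe sets cannot be set against each other as levels. Between any pair of arrays r was 0.962 to 0.978 over all probe sets. One array stood apart: KO 5 had a median of 5.93 over the 11090 genes tested, where the other 7 lay at 6.04 to 6.07, and limma gave it the lowest array weight (0.335, against 0.712 to 1.84). Epididymis and seminal vesicle transcripts were raised in KO 4 (mean of 12 genes 3.49) and WT 1 (3.28), against 1.87 to 2.15 in the other arrays. Different genes were high in each, such as Adam7 (10.2) and Lcn5 (8.56) in KO 4. Svs2, Svs4, Svs5 and Svs6 read 5.21 to 7.425 in WT 1, and Svs5 read 4.51 in WT 2. Testis and germ cell transcripts (mean of 9 genes) were highest in WT 1 (6.01), then WT 2 (5.00) and KO 4 (4.79). In the other arrays that mean was 3.56 to 4.11. Immediate early genes averaged 6.76 in KO 1 and 6.77 in KO 2, against 5.44 to 6.04 in the other KO arrays and 5.27 to 5.80 in WT. Mature adipocyte genes read high in all arrays: the mean of 13 measured markers was 10.48 to 10.89 in KO and 10.68 to 10.82 in WT. The target itself, Abhd15, read 5.60 to 6.27 in KO and 6.15 to 6.45 in WT, a difference of -0.43 that did not pass (limma adjusted p = 0.423), with KO 3 inside the WT range. Abhd15 has 2 probe sets, and this is the brighter. With the mean of both the difference was -0.56 (limma adjusted p = 0.360). The sources used here do not place its probes relative to the deletion, so neither difference checks the genotype labels.

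None of the members differed between the genotypes past the threshold of 0.05 after adjustment over all 11090 tested genes. Of the 8 measured members 7 were bright enough to be tested, meaning a mean over the 8 arrays at or above the median of all gene means (3.61). Of these 7, 3 were higher and 4 lower in KO, with a median log2 fold change of -0.14, against -0.03 over all tested genes. Adjusted p ran from 0.302 for Apln to 0.846 for Lep in limma. The share of all tested genes that passed was 0.0%, so this fit called no gene at all. At an unadjusted p under 0.05, 1 member (Apln, lower) stood out, where 10.5% of all tested genes did, 4.04% higher and 6.46% lower in KO. That background split depended on the scaling. As deposited 448 were higher and 716 lower. With each array centred on its median over all probe sets the counts were 476 and 502. Quantile normalization gave 628 and 526, which turned the direction. Over all probe sets the median of KO 5 was 3.09, within the 2.93 to 3.12 of the 8 arrays. That centring therefore did not correct the low median of KO 5 over the tested genes. The replicate number as a block gave 2 members with an unadjusted p under 0.05 (Apln and Rbp4), and 1997 genes in place of 1164. Of the 7 tested members 1, Apln, had no overlap between the groups. The share of all tested genes with none was 8.53% (2.99% with KO higher and 5.54% with KO lower). Itln1, below the level filter, also had none, with KO higher, as did 3.17% of all 22180 genes.

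**Figure D1:**
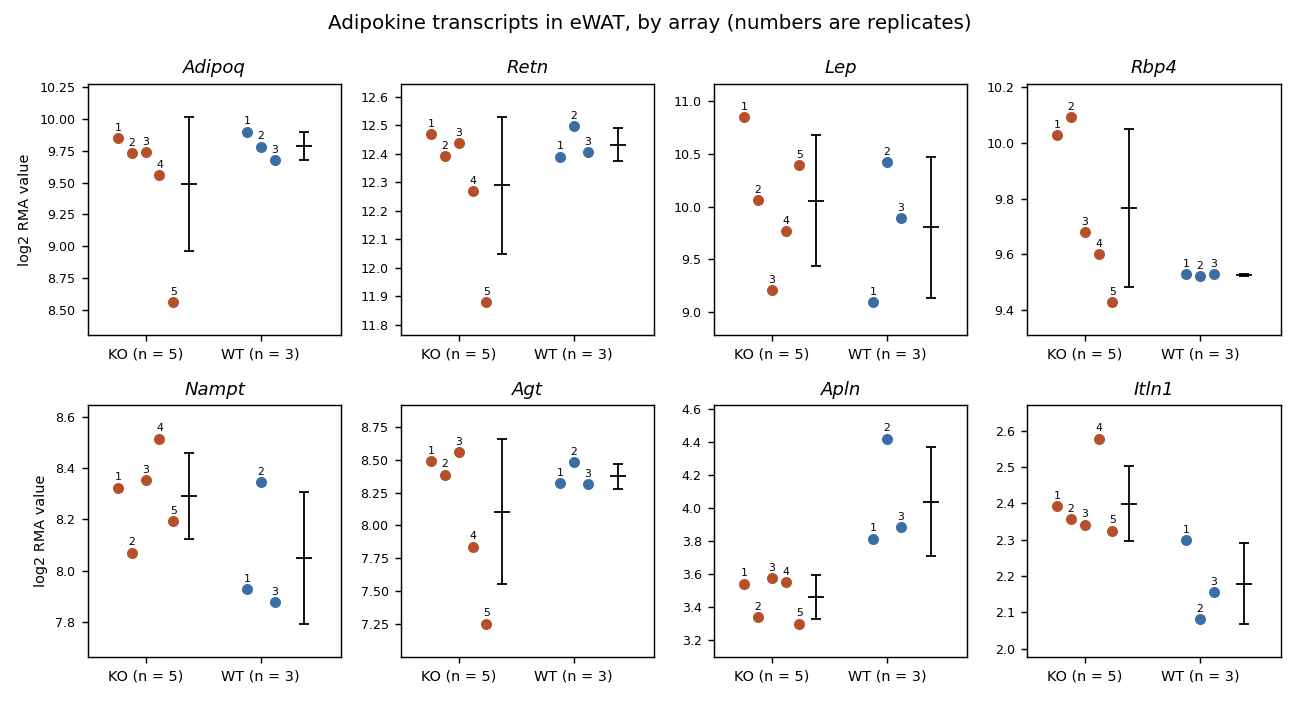
Log2 RMA values of the 8 measured adipokine genes (y axes differ between panels) in KO arrays (brown, left, n = 5) and WT arrays (blue, right, n = 3). Digits are replicate numbers, and bars are the mean ± SD. KO 5 lies lowest for Adipoq, Retn and Agt, and the groups are apart for Apln and, by a small gap, Itln1.

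The abundant adipocyte hormones adiponectin and resistin read much the same in WT and in 4 of the 5 KO arrays. Adipoq, on chromosome 16, encodes the collagen-like hormone adiponectin, which raises insulin sensitivity. It read 9.85, 9.73, 9.74, 9.56 and 8.57 in KO 1 to KO 5, against 9.90, 9.78 and 9.68 in WT 1 to WT 3. KO 5 was low by about 1 unit and the other KO arrays lay in or just below the WT range. The means were 9.49 ± 0.526 in KO (SD, n = 5) and 9.78 ± 0.112 in WT (SD, n = 3). The log2 fold change was -0.30 (SE 0.266, 95% interval -0.89 to 0.30, adjusted p = 0.731 in limma). Without KO 5 the difference was -0.07.

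Retn, on chromosome 8, encodes resistin, in mice a hormone of adipocytes that opposes insulin action. It read 12.47, 12.39, 12.44, 12.27 and 11.88 in KO 1 to KO 5, against 12.39, 12.50 and 12.41 in WT 1 to WT 3. Again KO 5 was lowest, and KO 4 also lay below all WT arrays. KO minus WT was -0.14 on the log2 scale (SE 0.153, 95% interval -0.48 to 0.20, adjusted p = 0.780 in limma), and -0.04 without KO 5.

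Angiotensinogen was likewise lowest in KO 5 and next lowest in KO 4. Agt, also on chromosome 8, encodes the substrate from which renin releases angiotensin I. It read 8.49, 8.39, 8.56, 7.84 and 7.26 in KO 1 to KO 5, against 8.32, 8.48 and 8.31 in WT 1 to WT 3. KO 1 to KO 3 lay within or near the WT values, while KO 4 and KO 5 were low. The means were 8.11 ± 0.553 in KO (SD, n = 5) and 8.37 ± 0.0948 in WT (SD, n = 3). The log2 fold change was -0.27 (SE 0.277, 95% interval -0.89 to 0.35, adjusted p = 0.772 in limma). The difference was -0.05 without KO 5.

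Of the 8 measured members, 5 had their lowest value of all 8 arrays in KO 5 (Adipoq, Retn, Agt, Rbp4 and Apln), and 28.9% of all tested genes did. The mean of the mature adipocyte list was also lowest in these arrays. It was 10.49 in KO 4 and 10.48 in KO 5, against 10.72 to 10.89 in KO 1 to KO 3 and 10.68 to 10.82 in WT. Within it Fabp4, the adipocyte fatty acid binding protein, read 12.84 in KO 5, while the lipase gene Lipe was lowest there (7.70). The part of KO 5's distribution or of adipocyte content in the low Adipoq, Retn and Agt values was not tested. In whole tissue, fewer adipocytes and less RNA per adipocyte cannot be told apart. The 3 genes whose array pattern was nearest to that of Adipoq, by the root mean square difference of gene-centred log2 values over the 8 arrays, were Gcc2 (0.0946), Zfp800 (0.0962) and Dbi (0.101), against a median of 0.426 over 10363 protein-coding genes. All 3 were low in KO 5, at 5.71, 5.17 and 4.67, and read at least 6.64, 5.98 and 5.94 in every other array.

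**Figure D2:**
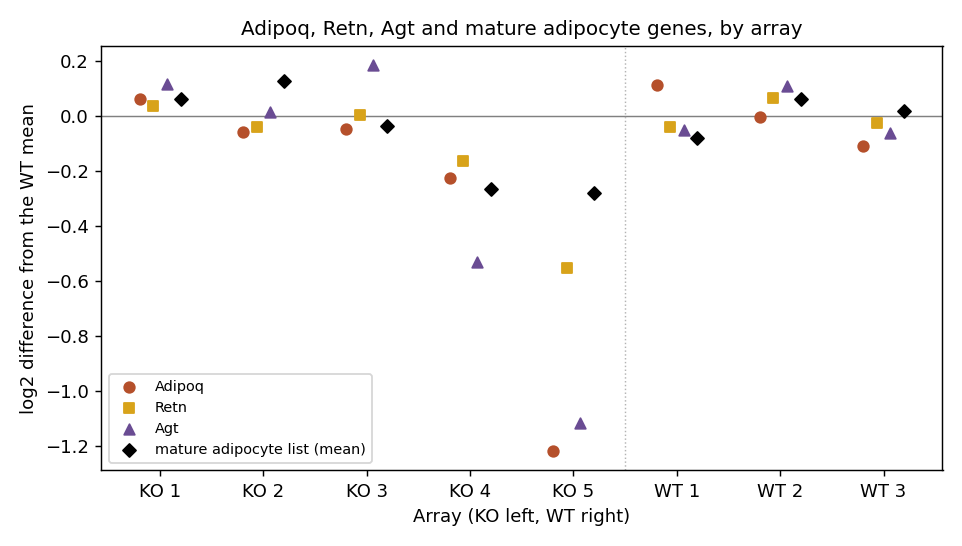
Difference of each array from the WT mean (log2) for Adipoq (circles), Retn (squares), Agt (triangles) and the mean of the mature adipocyte list (diamonds), KO arrays left of the dotted line and WT arrays right. The 3 genes lie near 0 in KO 1 to KO 3 and below it in KO 4 and KO 5, by the most in KO 5, where the adipocyte list is lower by less.

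The sequences upstream of Adipoq and Agt are shown because these are the members with the widest drop in KO 5. Each is the 250 bases before the RefSeq start site (GRCm38.p6), 5′ to 3′ on the gene's strand. Adipoq lies at chr16:23146286-23146535 on the plus strand and Agt at chr8:124569707-124569956 on the minus strand. Capitals mark matches, on either strand, to the motifs searched.
Adipoq: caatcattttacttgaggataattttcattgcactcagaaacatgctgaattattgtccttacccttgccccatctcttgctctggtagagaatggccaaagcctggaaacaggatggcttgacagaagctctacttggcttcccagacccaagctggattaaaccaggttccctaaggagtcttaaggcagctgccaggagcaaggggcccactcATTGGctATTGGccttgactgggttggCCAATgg
Agt: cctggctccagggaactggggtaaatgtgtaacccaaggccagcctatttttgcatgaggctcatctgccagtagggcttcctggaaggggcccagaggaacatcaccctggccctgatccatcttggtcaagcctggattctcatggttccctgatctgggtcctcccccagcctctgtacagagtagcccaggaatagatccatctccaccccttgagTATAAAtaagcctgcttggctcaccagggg
The motifs were TATAAA, found in 12.4% of the same windows of 32851 promoters, the CCAAT box (33.8%), the C/EBP palindrome TTGCNNAA (9.56%), the E-box CACGTG (6.02%), the HIF core ACGTG, which also lies within the E-box (16.6%), the cyclic AMP element core TGACG (17.8%), the GC box GGGCGG (32.7%) and the PPAR direct repeat of type DR1 (0.0335%). Adipoq held 3 matches to CCAAT, the first pair on the opposite strand, beginning at -34, -27 and -7 from the start site, and Agt held TATAAA at -30. The window upstream of Retn held no match to these letters. A match describes the letters and is not evidence of a bound factor.

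Leptin varied most among the members, in both genotypes. Lep, on chromosome 6, read 10.85, 10.06, 9.21, 9.77 and 10.40 in KO 1 to KO 5, against 9.09, 10.42 and 9.89 in WT 1 to WT 3. The groups overlapped almost completely. The means were 10.06 ± 0.623 in KO (SD, n = 5) and 9.80 ± 0.668 in WT (SD, n = 3). The log2 fold change was 0.25 (SE 0.376, 95% interval -0.58 to 1.09, adjusted p = 0.846 in limma). Its direction rested on single arrays: the difference was -0.10 without WT 1, -0.01 without KO 1 and KO 2, and 0.56 without WT 2. The pooled within-group SD of Lep was 0.639, larger than that of 96.8% of the tested genes, for which the median was 0.231. Agt (0.455) and Adipoq (0.434) were also more variable than most, with KO 4 and KO 5 the lowest KO arrays for both, whereas Retn (0.199), Nampt (0.201) and Apln (0.220) lay below the median. Fat mass and body weight are not in the labels, and their part in the spread of Lep was not tested.

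The region upstream of Lep, at chr6:29059971-29060220 (plus strand), is shown as the promoter of the most variable member. The capitals mark a GC box at -98 and the C/EBP palindrome at -55.
Lep: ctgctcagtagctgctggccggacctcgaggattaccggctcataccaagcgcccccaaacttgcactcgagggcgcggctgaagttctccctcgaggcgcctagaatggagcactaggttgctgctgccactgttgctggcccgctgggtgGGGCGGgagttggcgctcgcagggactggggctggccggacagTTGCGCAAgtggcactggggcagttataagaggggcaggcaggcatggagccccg
C/EBP alpha is a known activator of the leptin promoter in adipocytes. Its own transcript, Cebpa, read 9.56 to 9.99 in KO and 9.38 to 9.52 in WT, with a log2 fold change of 0.32 (limma SE 0.139, adjusted p = 0.454), while Lep overlapped between the groups.

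Retinol binding protein and Nampt read slightly higher in KO, without passing the test. Rbp4, on chromosome 19, encodes the plasma carrier of retinol, which adipocytes also release. It read 10.03, 10.09, 9.68, 9.60 and 9.43 in KO 1 to KO 5, against 9.53, 9.52 and 9.53 in WT 1 to WT 3. KO 1 to KO 4 lay above all WT arrays and KO 5 below them, and the WT arrays differed by 0.008 at most. The means were 9.77 ± 0.284 in KO (SD, n = 5) and 9.53 ± 0.00436 in WT (SD, n = 3). The log2 fold change was 0.24 (SE 0.167, 95% interval -0.13 to 0.61, adjusted p = 0.641 in limma). The difference was 0.32 without KO 5 and 0.04 without KO 1 and KO 2. With the replicate block, which leaves KO 4 and KO 5 out of the difference, it was 0.41 (unadjusted p = 0.0278, adjusted p = 0.230 in limma).

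Nampt, on chromosome 12, encodes the rate-limiting enzyme of NAD synthesis from nicotinamide, whose secreted form is also called visfatin. It read 8.32, 8.07, 8.35, 8.51 and 8.19 in KO 1 to KO 5, against 7.93, 8.34 and 7.88 in WT 1 to WT 3. All KO arrays lay above WT 1 and WT 3, while WT 2 lay among them. KO minus WT was 0.24 on the log2 scale (SE 0.154, 95% interval -0.10 to 0.58, adjusted p = 0.608 in limma). Without WT 2 it was 0.39 (unadjusted p = 0.0378, adjusted p = 0.559).

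Apelin was the member with the smallest p and the largest difference, and it was dim. Apln, on chromosome X, encodes a peptide that adipocytes and endothelial cells release and that insulin is known to induce in adipocytes. It read 3.54, 3.34, 3.58, 3.55 and 3.30 in KO 1 to KO 5, against 3.82, 4.42 and 3.88 in WT 1 to WT 3. All KO arrays lay below all WT arrays. The means were 3.46 ± 0.131 in KO (SD, n = 5) and 4.04 ± 0.332 in WT (SD, n = 3). The log2 fold change was -0.58 (SE 0.162, 95% interval -0.94 to -0.22) or 0.67 times the WT signal. The unadjusted p was 0.00498 and the adjusted p 0.302 in limma. The exact permutation test (two-sided) gave p = 0.0357, its smallest possible value, since there are 56 splits of these arrays. Every gene with its groups apart gets this p, Itln1 among them, so it restates the lack of overlap. Apln cleared the level filter of 3.61 only through its WT values, since its KO mean lay below it. Without the filter the adjusted p was 0.440. With its groups apart, only the 2 scalings could have turned the sign of the Apln difference. It was -0.55 with each array centred and -0.515 with quantile normalization. Over all 18 alternatives it lay between -0.39 (without WT 2) and -0.71 (without WT 1 and KO 4). The unadjusted p was 0.00281 to 0.0314 and the adjusted p 0.115 to 0.576 in limma. Groups apart with KO lower occurred in 5.54% of all tested genes, and in 2.88% of the 694 tested genes with a mean within 0.25 of that of Apln.

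Several endothelial markers also read lower in KO, none past the adjusted threshold. Of 12 tested endothelial markers 9 were lower and 3 higher in KO, 5 of them lower and 1 higher at an unadjusted p under 0.05 (6.46% and 4.04% of all tested genes), with a median log2 fold change of -0.43 against -0.03 over all tested genes. Their mean per array was 7.03 to 7.34 in KO and 7.17 to 7.62 in WT. It was highest of the KO arrays in KO 5, the array in which Apln was lowest, and the part of endothelial content in the Apln values was not tested. The 3 genes nearest to Apln in array pattern were Zfp280b (root mean square difference 0.117), Zfp516 (0.118) and Efhd1 (0.129), against a median of 0.389. Their log2 fold changes were -0.42, -0.46 and -0.61, with adjusted p of 0.381, 0.291 and 0.254 in limma. The region upstream of Apln, at chrX:48034854-48035103 (minus strand), is shown because Apln is the tested member with the groups apart. Its single match is a GC box at -144.
Apln: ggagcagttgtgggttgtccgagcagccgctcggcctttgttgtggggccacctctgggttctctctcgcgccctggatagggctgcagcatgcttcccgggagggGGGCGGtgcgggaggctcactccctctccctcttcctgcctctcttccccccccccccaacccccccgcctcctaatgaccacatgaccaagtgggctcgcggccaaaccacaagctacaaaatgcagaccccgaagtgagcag

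Intelectin was at background. Itln1, on chromosome 1, encodes a lectin known as omentin in human visceral fat. It read 2.39, 2.36, 2.34, 2.58 and 2.33 in KO 1 to KO 5, against 2.30, 2.08 and 2.16 in WT 1 to WT 3. All KO arrays lay above all WT arrays, but the lowest KO array (2.325) and the highest WT array (2.299) were nearly level. Every value lay below the median of all probe sets on its array (2.93 to 3.12). The mean over the 8 arrays was 2.32, below the level filter of 3.61, so Itln1 was not tested in the filtered fit. In the fit without the filter the log2 fold change was 0.22 (SE 0.119, adjusted p = 0.653 in limma). Groups apart with KO higher occurred in 3.17% of all 22180 genes. Of 13 mesothelial markers, 8 were higher and 5 lower in KO. The 2 at an unadjusted p under 0.05, Prg4 (log2 fold change -1.30, adjusted p = 0.0752 in limma) and Muc16 (-0.85, adjusted p = 0.254), were both lower with the groups apart. Over all tested genes 6.46% were lower at that p and 5.54% were lower with the groups apart. The mean of the 13 was 5.52 to 5.98 in KO and 5.86 to 6.04 in WT.

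**Figure D3:**
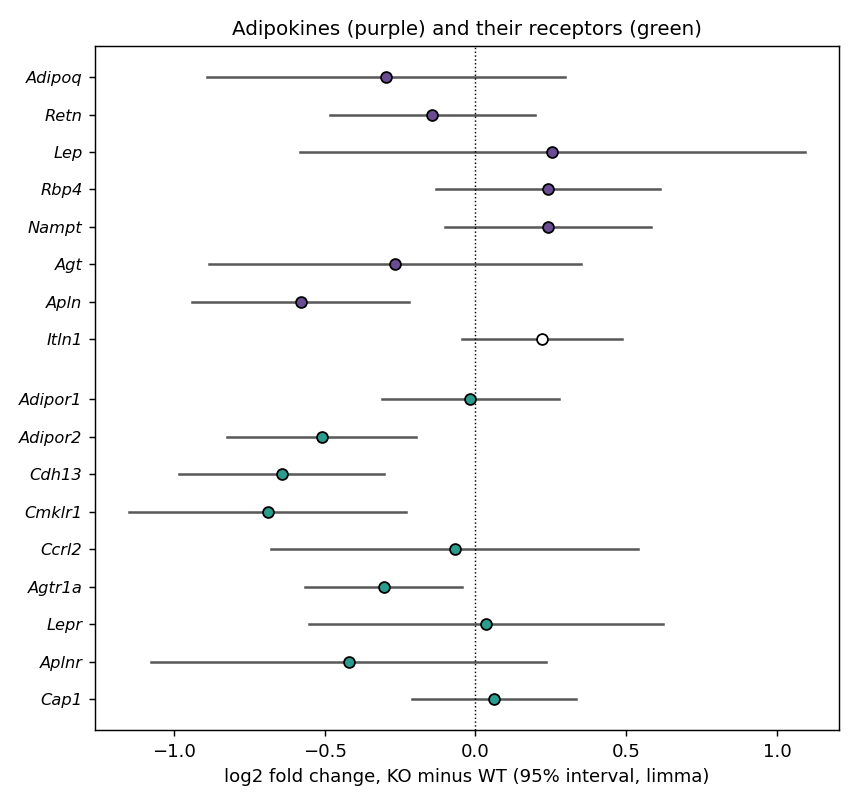
Log2 fold change, KO minus WT, with its 95% interval from limma for the 8 measured adipokines (purple, Itln1 open because its interval comes from the fit without the level filter) and the 9 tested receptors (green). Intervals lie wholly below 0 for Apln, Adipor2, Cdh13, Cmklr1 and Agtr1a, none of which passed the adjusted threshold.

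Several receptors of these hormones read lower in KO than in WT. Of 15 receptor genes listed, 9 were tested, 2 higher and 7 lower in KO, with a median log2 fold change of -0.30 against -0.03 over all tested genes. Over all 15, with those below the level filter, the median was -0.02. None passed the adjusted threshold. Of the 9 tested, 4 (Cdh13, Adipor2, Cmklr1 and Agtr1a) had an unadjusted p under 0.05 and groups apart, all lower in KO. Over all tested genes 6.46% were lower at that p and 5.54% were lower with the groups apart. Agtr1a was under that p in 11 of the 18 alternatives, and not with the replicate block (unadjusted p = 0.0606 in limma), with each array centred (0.0734) or with quantile normalization (0.0524). The endothelial markers described beside Apln read lower too (median -0.43, 9 of 12). Aplnr is on both lists, and Cdh13 is also a gene of vessels. The part of endothelial content in the receptor values was not tested.

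Both unconventional and classical adiponectin receptors were among them. Adipor2, the receptor coupled to PPAR alpha activity in liver, read 11.01 in KO 1 to KO 3, 10.75 in KO 4 and 10.57 in KO 5, against 11.41, 11.31 and 11.42 in WT 1 to WT 3. Its log2 fold change was -0.51 (SE 0.141, 95% interval -0.82 to -0.20, adjusted p = 0.291 in limma), and -0.44 without KO 5. Cdh13, which encodes T-cadherin and binds the large forms of adiponectin on vessels, read 5.97, 6.17, 6.27, 5.99 and 5.81 in KO 1 to KO 5, against 6.48, 6.94 and 6.63 in WT 1 to WT 3. Its log2 fold change was -0.64 (SE 0.153, 95% interval -0.98 to -0.30, adjusted p = 0.226 in limma). Adipor1, the receptor coupled to AMPK in muscle, overlapped fully, at 8.66 to 8.95 in KO and 8.65 to 9.01 in WT, a log2 fold change of -0.02 (95% interval -0.31 to 0.28). Whether Adipor2 differs from Adipor1 in its response was not tested.

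Cmklr1, the signalling receptor for chemerin, read 6.90, 6.88, 6.93, 7.45 and 7.72 in KO 1 to KO 5, against 7.82, 7.89 and 7.88 in WT 1 to WT 3. KO 1 to KO 3 were low by nearly 1 unit, and KO 5 lay just below WT. Its log2 fold change was -0.69 (SE 0.206, 95% interval -1.15 to -0.23, adjusted p = 0.322 in limma). The gene is expressed by macrophages as well as adipocytes. Of 15 macrophage markers 5 were higher and 10 lower in KO. None had an unadjusted p under 0.05, where 10.5% of all tested genes did. The mean of the 15 was lowest in KO 4 (7.02) and KO 5 (7.04). It was 7.37 to 7.41 in KO 1 to KO 3 and 7.25 to 7.34 in WT. The part of macrophage content in the Cmklr1 values was not tested. Ccrl2, which binds chemerin without signalling, overlapped (log2 fold change -0.07), and Gpr1, a further chemerin receptor, was below the level filter.

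Agtr1a, the main angiotensin II receptor, read 5.71 to 5.83 in KO and 5.92 to 6.21 in WT, a log2 fold change of -0.30 (SE 0.117, 95% interval -0.56 to -0.04, adjusted p = 0.407 in limma). Its paralogue Agtr1b, Agtr2 and the angiotensin (1-7) receptor Mas1 were below the level filter, at means of 1.82, 2.17 and 1.92 in KO and 1.77, 2.16 and 1.88 in WT. The apelin receptor Aplnr, an endothelial gene, read 3.92 to 4.85 in KO and 4.13 to 5.34 in WT and overlapped (log2 fold change -0.42, 95% interval -1.08 to 0.24, adjusted p = 0.644 in limma). The leptin receptor Lepr (0.03) and Cap1, which binds human resistin (0.06), showed the smallest differences besides Adipor1. The retinol transporters Stra6 and Stra6l were below the filter.

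**Figure D4:**
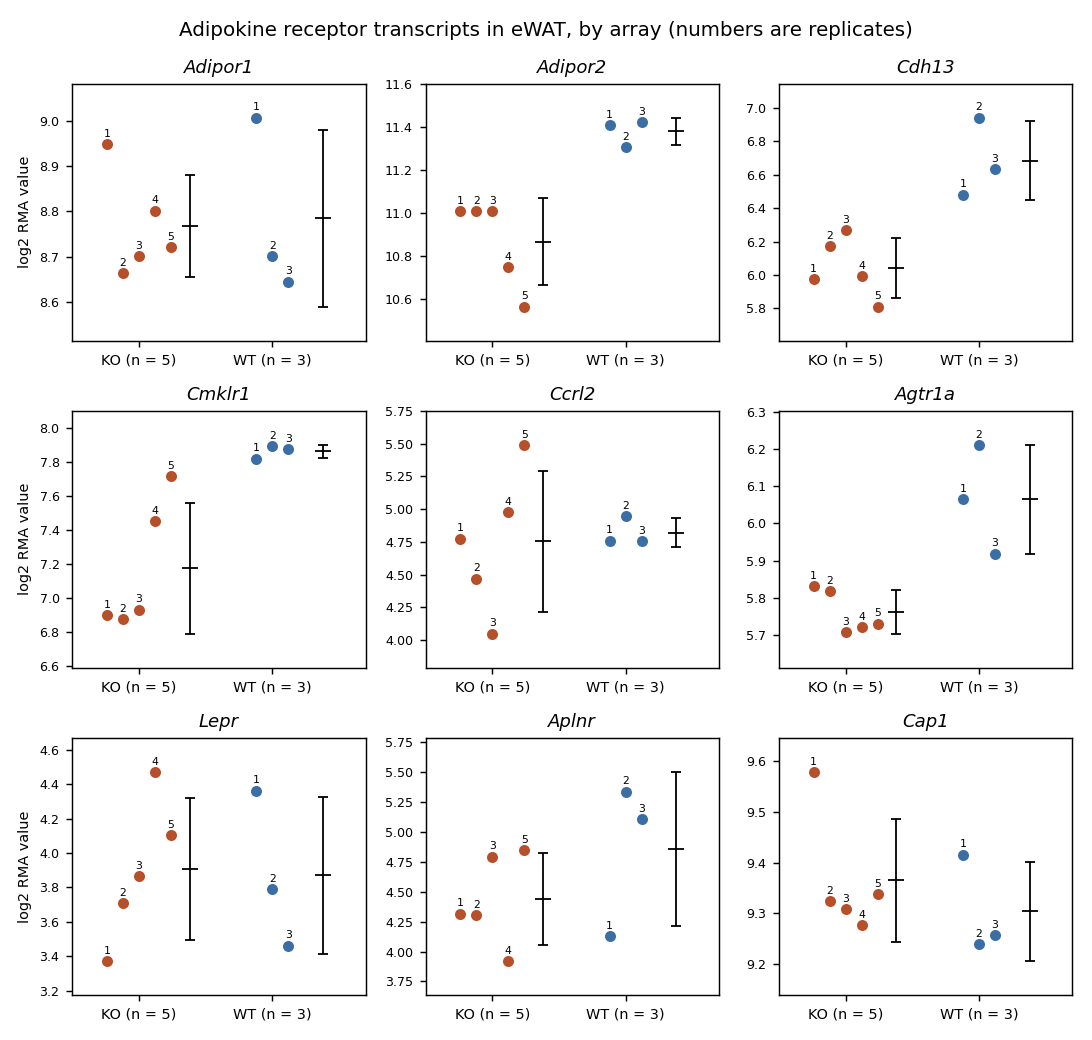
Log2 RMA values of the 9 tested receptor genes (y axes differ between panels) in KO arrays (brown, left, n = 5) and WT arrays (blue, right, n = 3), with replicate numbers and mean ± SD. KO arrays lie wholly below WT arrays for Adipor2, Cdh13, Cmklr1 and Agtr1a, and the groups overlap for the other 5.

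Genes that assemble, cut or act beside the hormones showed few differences. Of 24 tested, 13 were higher and 11 lower in KO, none passed the adjusted threshold, and the median log2 fold change was 0.02. Mme, which encodes neprilysin, a membrane protease that degrades small peptides such as angiotensin I, read 8.67, 8.61, 8.57, 9.15 and 8.58 in KO 1 to KO 5, against 7.72, 8.04 and 7.80 in WT 1 to WT 3. Its log2 fold change was 0.86 (SE 0.162, adjusted p = 0.148 in limma), and it passed with array weights (0.82, adjusted p = 0.0476). Ero1a, the oxidase of the endoplasmic reticulum that aids adiponectin release, read 6.98 to 7.27 in KO and 7.36 to 7.59 in WT, a log2 fold change of -0.29 (adjusted p = 0.445 in limma). With the mean of its probe sets Ero1a was at -0.15 (unadjusted p = 0.25 in limma). It had an unadjusted p under 0.05 in 7 of the 18 alternatives. Its partner in adiponectin retention, Erp44, was at -0.06. Sirt1, an NAD-dependent deacetylase (-0.18), and Nmnat3, a later enzyme of NAD synthesis (-0.31), had the smallest p among the tested partners of Nampt in NAD metabolism and overlapped. Nmnat2, of the same pathway, was below the level filter and read 3.00 to 3.52 in KO and 2.76 to 2.87 in WT (log2 fold change 0.46, unadjusted p = 0.00863, adjusted p = 0.478 in limma without the filter). Of the renin-angiotensin enzymes, Ace was at 0.14, Enpep at -0.22 and Anpep at 0.07.

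Relatives of adiponectin and resistin overlapped between the groups. Of 8 tested C1q/TNF-related and resistin-like genes, 4 were higher and 4 lower in KO, with a median of -0.02. None had an unadjusted p under 0.05, where 10.5% of all tested genes did, so this count is near the background. C1qtnf7 (-0.38), C1qtnf9 (-0.37), C1qtnf1 (0.28) and C1qtnf4 (-0.13) had the smallest p, 0.0792 to 0.508 unadjusted in limma. Single arrays moved these values: C1qtnf9 was at -0.08 without WT 2, -0.22 without KO 3 and -0.71 without WT 1 (unadjusted p = 0.0238, adjusted p = 0.713), C1qtnf1 at 0.05 without WT 1 and 0.43 without WT 2, and C1qtnf4 at -0.04 without WT 1, -0.05 without KO 4 and -0.25 without either WT 2 or KO 5. C1qtnf7 was at -0.51 without WT 3 and -0.49 without KO 1 (unadjusted p = 0.0445 and 0.0175, adjusted p = 0.598 and 0.442). With the mean of its probe sets C1qtnf9 was at -0.15. Retnla, the resistin-like gene of alternatively activated macrophages, was at -0.07.

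Among 29 other secreted products, 13 were higher and 16 lower in KO, with a median of -0.03, and none passed the adjusted threshold. Of these, 5 had an unadjusted p under 0.05, 2 higher and 3 lower, where 10.5% of all tested genes did, 4.04% higher and 6.46% lower. Beside the lipoprotein lipase inhibitors Angptl8 (-2.57) and Angptl4 (0.98), these included Orm1, an acute phase plasma glycoprotein, and Mest, a gene linked to fat expansion. Orm1 read 8.44, 8.19, 7.07, 6.70 and 6.74 in KO 1 to KO 5, against 6.56, 6.24 and 6.32 in WT 1 to WT 3, with a log2 fold change of 1.06 (limma SE 0.399, adjusted p = 0.3999). KO 1 and KO 2, the arrays high in immediate early genes, carried most of it, and without them the difference was 0.47. Mest read 8.26 to 9.42 in KO and 9.25 to 10.13 in WT, with a log2 fold change of -1.05 (limma SE 0.291, adjusted p = 0.291). The transcripts of Vegfa (0.0003), Sparc (-0.03) and Lpl (-0.05) differed by little, and Il6 and Tnf were below the level filter.

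Of 20 transcription factors known to act on adipokine genes, 10 were higher and 10 lower in KO, and none passed. Pparg, the master regulator of adipocytes and an activator of Adipoq, read 9.94 to 10.36 in KO and 10.37 to 10.74 in WT, with a log2 fold change of -0.47 (limma SE 0.147, adjusted p = 0.331). The lowest WT array (10.369) lay barely above the highest KO array (10.356). Creb1, which cyclic AMP activates, was at -0.28 and Arntl, a core clock factor, at -0.52 (adjusted p = 0.424 and 0.571 in limma).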

How the data were processed

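Total RNA of 8 mice was hybridised to Affymetrix mouse gene arrays. The deposited values are log2 per probe set, made by the authors with RMA (background correction, normalization and probe summary); RMA and oligo are named per the submitters' processing notes and Expression Console in the series design text, so which made them is not settled. The sources used here give no versions and no genome build. Values were used as deposited. Of 41345 probe sets 23521 had 1 gene symbol, 1814 several and 16010 none listed, and 23328 were matched by Entrez identifier to RefSeq (GRCm38.p6) for current symbols and chromosomes. Per gene the probe set with the highest mean over 8 arrays was kept (22180 genes), and those at or above the median mean were tested (11090).

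The contrast KO minus WT was fitted with limma 3.58.1 (R 4.3.3) and tested two-sided, with Benjamini-Hochberg adjustment over all tested genes. Single members also had an exact permutation test over 56 splits. Promoter sequences are RefSeq's; all 8 measured members matched. Figures used matplotlib 3.10.9 in Python 3.11.15. The procedure was tested on simulated data. Arrays carry no counts, and their number limits the precision.

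The members and the lists were chosen with earlier results of these data known. The members are all named; of each list the 4 tested genes with the smallest unadjusted p are named, and others named in passing were chosen after their values were seen. Lists were searched by symbol, with Rbpr2 found as Stra6l and Bmal1 as Arntl. KO and WT share the replicate numbers 1 to 3. Deviations from the group means correlated at 0.133, 0.103 and 0.192 between arrays of the same number, all above 0.1, so the numbers were treated as pairing in the alternative with the replicate block; what a number stands for is unknown, and differently numbered pairs reached 0.105. The other alternatives were 2 scalings, 2 level filters, the mean of probe sets, array weights, a trended robust prior, leaving out each array, and leaving out WT 1 with KO 4 and KO 1 with KO 2.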

Additional observations from a re-analysis of the deposited data

Results flagged for a closer look

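In the KO group of 5 arrays, 4 of the 29 genes examined (the measured members, Abhd15 and the named list genes) had 1 array far from the other 4 by Dixon's test at the 95% level, by which chance flags about 1 group in 20. Adipoq read 8.57 in KO 5, against 9.56 to 9.85 in the other KO arrays. Ero1a, which aids adiponectin release, also read low in KO 5, at 6.98 against 7.19 to 7.27. Itln1 read 2.58 in KO 4, against 2.33 to 2.39, all near background. Mme read 9.15 in KO 4, against 8.57 to 8.67. KO 4 also had the highest mean of the epididymis and seminal vesicle list (3.49, against 1.87 to 2.15 in the other KO arrays). Adam7 (10.2) and Lcn5 (8.56) were high there, while Svs2 was not (2.03). The part of these transcripts in the KO 4 values of Itln1 and Mme was not tested.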

How the results depend on the processing

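No member passed the adjusted threshold under any of the 18 alternatives run. The sign of the difference held in all alternatives for Adipoq, Rbp4, Nampt, Apln and Abhd15, and in the 12 that gave a value for Itln1. The groups of Apln and Itln1 are apart, so leaving out arrays could not turn their sign. Level filters and the trended robust prior leave a difference unchanged. For Itln1 the 12 were all leave-outs or level filters, so its sign was fixed in advance. The sign for Lep turned without WT 1 (-0.10), without WT 1 and KO 4 (-0.027) and without KO 1 and KO 2 (-0.011). Its difference reached 0.56 without WT 2. With the replicate block, which leaves KO 4 and KO 5 out of the difference, Retn was at 0.0003 and Agt at 0.105. C1qtnf4 was at 0.031 without WT 1 and KO 4. Of the other genes named, Mme, Angptl8 and Angptl4 passed with array weights, and Angptl4 without KO 5. Members with an unadjusted p under 0.05 numbered 2 with the replicate block and 2 with array weights (Rbp4 joining Apln), and 1 to 2 when single arrays were left out (2 without WT 2, with Nampt). Over all genes, 2 passed the threshold with the replicate block, 40 with array weights, 3 with a trended robust prior and 0 to 5 with single arrays left out (5 without KO 5). The count at an unadjusted p under 0.05 (1164) was 1871 without the level filter, 1997 with the replicate block, 1873 with array weights, 732 without WT 1 and KO 4, and 745 (without WT 1) to 1596 (without KO 5) with single arrays left out. The replicate block changed no other call on a member. Each member has 1 probe set, so the alternative with a second probe set could not be run. Causes were not tested. With 3 WT arrays and dim signals for Apln and Itln1, small differences were not detectable.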

Other observations

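The probe set annotated to Lrrc61 and Rarres2 together, and so assignable to neither, read 9.82, 9.98, 9.58, 9.34 and 9.17 in KO 1 to KO 5, against 9.48, 9.72 and 9.53 in WT 1 to WT 3. The means were 9.58 ± 0.332 in KO (SD, n = 5) and 9.58 ± 0.127 in WT (SD, n = 3). KO 5 was again the lowest array, as for Adipoq, Retn and Agt, and KO 4 the next. The KO range enclosed the WT range, with a difference of -0.004.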
